A study of Mus musculus with 20 samples.

Results

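Late-life rapamycin was examined in the mouse heart through 10 genes that set the capacity of cardiac muscle to burn fat and build mitochondria. These are the fatty acid-sensing nuclear receptors Ppara, Ppard and Pparg, and Rxra, a dimer partner they share. With them come the coactivators Ppargc1a and Ppargc1b, the estrogen-related receptors Esrra, Esrrb and Esrrg, and Nrf1. The 10 genes were taken by symbol from the 34291 rows of a table of read counts. All 10 had counts high enough to be tested. The hearts came from C57BL/6 mice that received food containing 14 ppm rapamycin (10 mice) or a control diet (10 mice) from 24 months of age, and were taken after 3 months, at 27 months of age. Rapamycin inhibits mTOR, a kinase that couples nutrient supply to cell growth. RNA came from the whole frozen organ, with all of its cell types mixed, and polyadenylated transcripts were sequenced. Sex is not given in the sources used here. Hearts are named below by diet and by the number in their label.

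PPARs are switched on by fatty acids and their derivatives, bind DNA as dimers with a retinoid X receptor, and turn on genes for the uptake and oxidation of fat. Estrogen-related receptors bind a similar DNA element without a known natural hormone and drive genes of oxidative phosphorylation and of the contractile cell. PGC-1 coactivators bind no DNA themselves. They dock on both receptor families and on NRF1, a factor that controls nuclear genes for the respiratory chain and for the copying of mitochondrial DNA, and they respond to energy demand. The adult heart draws most of its energy from fatty acids and expresses the whole circuit. Nrf1 here is nuclear respiratory factor 1, which is unrelated to the NFE2-like factors that sometimes carry the same name.

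The stretches upstream of 5 of these genes are shown. Ppara, Esrra, Esrrb and Esrrg are among the genes whose levels moved together among hearts, as given further on. Rxra and Ppard are among them too, but their stretches are not printed. Ppargc1a was added because its promoter is a textbook case of control by cAMP and calcium signals. Sequences were taken from RefSeq on GRCm38.p6, another build than the one the counts were made on, and run 5′ to 3′ on the strand of the gene through the 250 bases before its start. RefSeq gave 17 start sites for 9 of the 10 genes, with no entry for Ppargc1b. Capitals mark matches to motifs that were searched on both strands. The motifs were the core element AGGTCA of nuclear receptors, its extended form TNAAGGTCA bound by ERRs, and the direct repeat bound by PPAR and RXR, which is AGGTCA given 2 times with 1 free base between. The others were the cAMP response element TGACGTCA and its short form TGACG, the palindromic NRF1 element, whose letters are the longer run of capitals in the Ppara sequence, and a MEF2 element, whose letters are the capitals in the Esrrg sequence. AGGTCA lies inside the extended form and inside the repeat, and TGACG lies inside TGACGTCA.
Ppara, chr15:85735526-85735775, plus strand: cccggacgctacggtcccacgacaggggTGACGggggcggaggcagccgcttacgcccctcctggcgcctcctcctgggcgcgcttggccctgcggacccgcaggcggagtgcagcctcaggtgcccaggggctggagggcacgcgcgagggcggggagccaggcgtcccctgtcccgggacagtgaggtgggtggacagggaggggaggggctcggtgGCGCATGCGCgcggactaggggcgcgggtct
Ppargc1a, chr5:51567726-51567975, minus strand: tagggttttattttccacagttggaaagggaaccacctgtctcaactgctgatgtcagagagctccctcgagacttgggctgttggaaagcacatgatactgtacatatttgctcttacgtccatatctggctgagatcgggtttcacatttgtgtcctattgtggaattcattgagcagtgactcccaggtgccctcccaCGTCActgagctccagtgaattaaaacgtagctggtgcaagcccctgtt
Esrra, chr19:6921809-6922058, minus strand: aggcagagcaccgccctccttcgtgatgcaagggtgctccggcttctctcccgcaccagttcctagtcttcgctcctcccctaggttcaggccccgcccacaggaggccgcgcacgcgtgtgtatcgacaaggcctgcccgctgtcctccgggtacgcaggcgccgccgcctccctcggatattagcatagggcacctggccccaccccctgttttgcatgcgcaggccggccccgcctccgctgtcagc
Esrrb, chr12:86360867-86361116, plus strand, start 1 of 2: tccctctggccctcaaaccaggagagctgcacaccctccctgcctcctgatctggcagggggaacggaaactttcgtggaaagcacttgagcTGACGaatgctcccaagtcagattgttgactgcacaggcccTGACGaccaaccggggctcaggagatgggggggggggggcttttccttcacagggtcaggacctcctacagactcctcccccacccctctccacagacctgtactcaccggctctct
Esrrg, chr1:187608756-187609005, plus strand, start 1 of 4: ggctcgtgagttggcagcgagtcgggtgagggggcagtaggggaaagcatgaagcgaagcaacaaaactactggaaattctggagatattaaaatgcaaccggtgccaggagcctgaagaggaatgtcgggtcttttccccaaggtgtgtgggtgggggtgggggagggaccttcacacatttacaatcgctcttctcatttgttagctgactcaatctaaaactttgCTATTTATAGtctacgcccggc

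The Ppara stretch held the NRF1 element beginning 31 bases before the start, and a TGACG 222 bases before it. In 300-base windows that also took in the first 50 transcribed bases, the NRF1 element was found in 1.33% of 21263 promoters of protein-coding genes. Esrra held no match. Esrrg carried the MEF2 element 22 bases before its first start, a motif found in 0.146% of all promoters. The short cAMP element TGACG lay 49 bases before the start of Ppargc1a, on the minus strand relative to the gene, and 158 and 117 bases before the first start of Esrrb. It was present in 4 of the 17 promoters of these genes against 23.6% of all promoters. AGGTCA was present in 3 of 17 (17.6%), belonging to Pparg and Rxra, against 14.7% of all promoters. None of the 17 windows held TNAAGGTCA (1.03% of all promoters), the direct repeat (0.047%) or TGACGTCA (2.23%). A match is a string of letters in a window and not a measured binding site.

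Libraries held 7039514 to 10594335 counts in controls and 8525162 to 12458309 with rapamycin. Levels are given as CPM, reads of a gene relative to the depth of its library, scaled by trimmed mean of M-values (TMM). The members had medians of 202.5 (Pparg) to 1485 (Esrra) reads per library. Counting alone would then give a coefficient of variation of 7.03% to 2.59%, and differences smaller than that between single hearts were not detectable at this depth. Control 19 stood apart from all other libraries. Transcripts that mark lung epithelium and alveolar macrophages (8 genes, Sftpc among them) summed to 24899 CPM in it, against 371 CPM in the next library, control 1. Its 10 cardiomyocyte markers summed to 20277 CPM, while the other controls held 46514 to 66572 CPM and the rapamycin hearts 53065 to 70076 CPM. The estimate of every member is therefore given with and without this library. In bulk tissue, fewer cells of a type and less RNA per cell cannot be told apart.

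None of the 10 regulators passed an adjusted p of 0.05 between diets with all libraries, or without control 19 (edgeR quasi-likelihood test, Benjamini-Hochberg over 13940 and 13977 genes). Over all genes tested, 3.36% passed (0.689% rose and 2.68% fell), and without control 19, 3.38% (1.05% rose and 2.33% fell). Unadjusted p fell under 0.05 for 2 of the 10, Ppargc1b and Rxra, both higher with rapamycin, where 21.7% of all genes did and 8.21% did so upward. The same 2 were under 0.05 without control 19, beside 8.94% of all genes upward. DESeq2 called 1 of the 10, Ppargc1b, and limma-voom called none. The estimates of 9 of 10 lay above 0, with a median log2 fold change of 0.15 (0.10 without control 19) beside −0.0098 for all genes. Scaling by library totals alone moved the median of all genes by more than 0.1, to −0.13, and then 7 of 10 members lay above 0 with a median of 0.037.

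**Figure D1:**
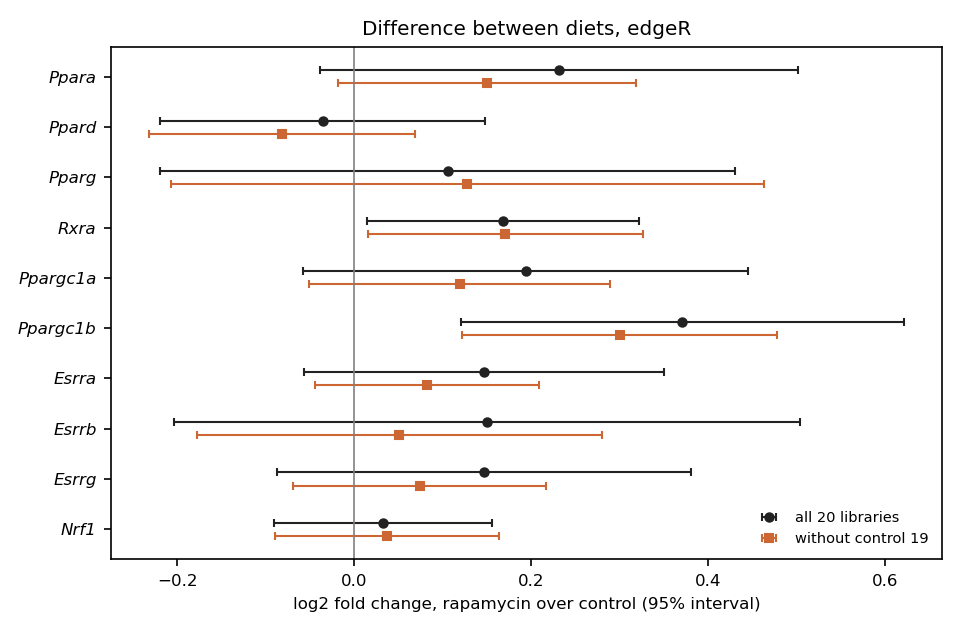
Log2 fold change, rapamycin over control, of each of the 10 regulators with its 95% interval from edgeR, for all 20 libraries and for the 19 without control 19. The interval excludes 0 for Ppargc1b and Rxra in both fits. The estimates for Ppara, Ppargc1a, Ppargc1b, Esrra, Esrrb and Esrrg move toward 0 when control 19 is left out.

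Ppargc1b, which encodes PGC-1β, the coactivator tied to the basal oxidative capacity of the heart, showed the largest difference. Its levels in control hearts ran from 16.5 through a median of 34.2 to 46.8 CPM, and in rapamycin hearts from 34.3 through 41.9 to 50.0 CPM. All 10 rapamycin hearts lay above the control median and 5 controls lay below every rapamycin heart, but the highest controls overlapped the rapamycin range. The mean was 33.3 ± 7.82 CPM in controls and 43.2 ± 5.29 CPM with rapamycin (SD, n = 10 per group). This is a log2 fold change of 0.37 ± 0.12 (SE), or 1.29-fold with a 95% interval of 1.09 to 1.54, and it missed the threshold (edgeR adjusted p = 0.0833). Control 19 was the lowest control at 16.5 CPM and the next lowest held 29.0 CPM. Without control 19 the log2 fold change was 0.30 ± 0.086 (edgeR adjusted p = 0.0548). When single hearts were left out in turn it stayed between 0.30 and 0.44. Without control 16, the control heart with the most Ppargc1b, it passed the threshold (log2 fold change 0.44, edgeR adjusted p = 0.0409), as it did by DESeq2 with all libraries (0.38, adjusted p = 0.0448).

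Its relative Ppargc1a, which encodes PGC-1α, the coactivator induced by exercise, fasting and cold, was the more abundant per kilobase of exon and differed less between diets. Control levels were 50.1, 107 and 152 CPM (lowest, median, highest), and rapamycin levels 105, 118 and 137 CPM. The rapamycin hearts sat inside the control range, and 9 of 10 lay above the control median. The log2 fold change of 0.19 ± 0.12 (95% interval −0.057 to 0.45) did not pass the test (edgeR adjusted p = 0.361), nor did that of 0.12 ± 0.082 without control 19 (adjusted p = 0.461). Control hearts other than control 19 varied more (coefficient of variation 17.3%) than rapamycin hearts (7.94%), a difference in spread that was not tested. Within single hearts the log2 ratio of Ppargc1b to Ppargc1a was −1.62 ± 0.30 in controls and −1.46 ± 0.17 with rapamycin (SD). The difference of 0.17 ± 0.11 (SE) between the group means did not pass the test (2-sided permutation test, p = 0.152, adjusted over 7 ratios 0.532).

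**Figure D2:**
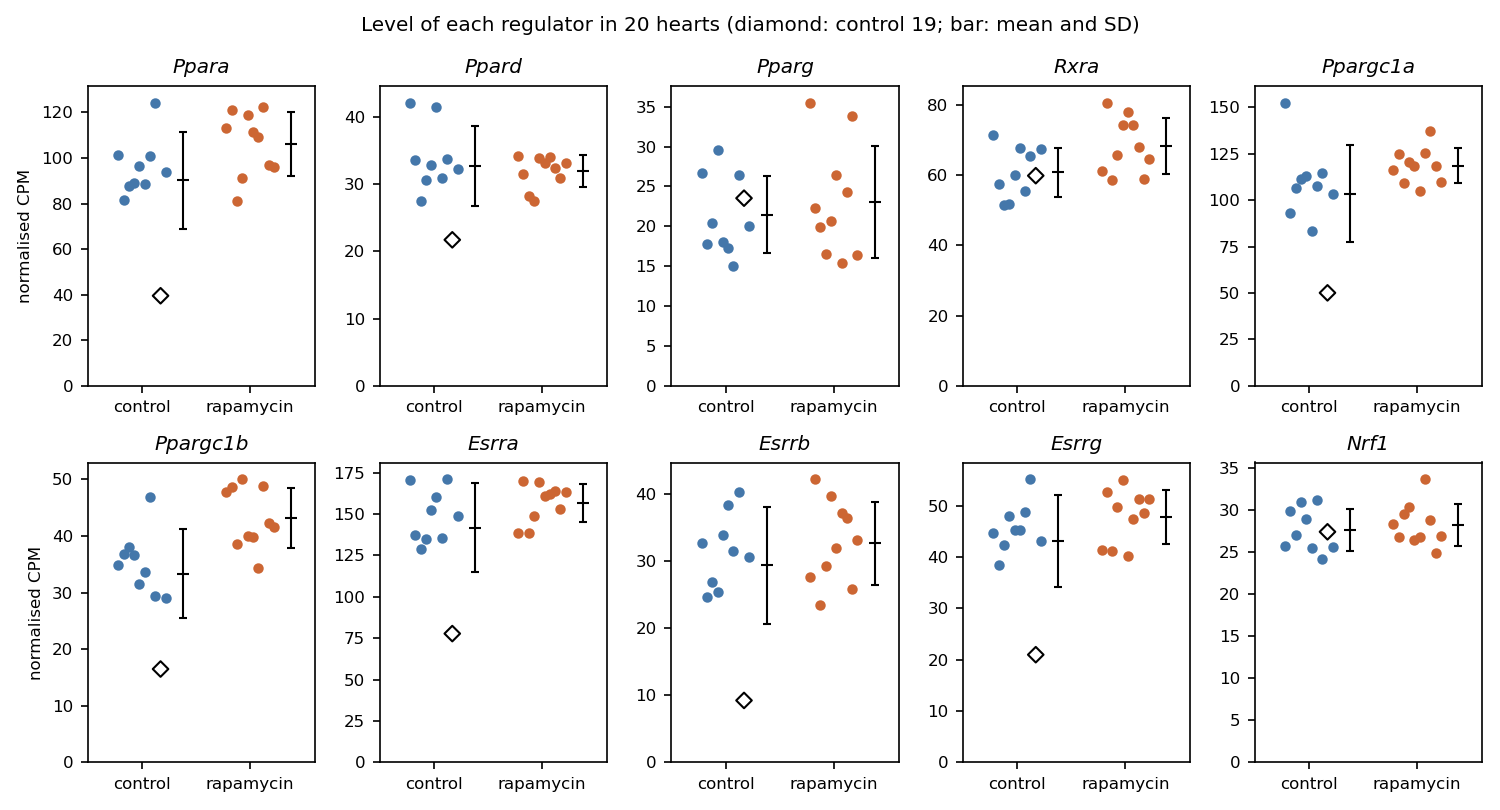
Normalised CPM of each of the 10 regulators, 1 panel per gene with a linear axis from 0, where each point is 1 heart and the bar and whiskers are the mean and SD of 10 hearts per diet. Control 19 is marked and is the lowest point for Ppara, Ppard, Ppargc1a, Ppargc1b, Esrra, Esrrb and Esrrg, and the 2 diets overlap in every panel.

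Among the PPARs, Ppara, the main driver of fatty acid oxidation in cardiac muscle, was the most abundant per kilobase of exon. Its level ran from 39.5 through 91.2 to 124 CPM in controls and from 81.0 through 110 to 122 CPM with rapamycin. Apart from control 19 at 39.5 CPM, whose nearest control held 81.4 CPM, the 2 groups covered nearly the same range, although 8 of 10 rapamycin hearts exceeded the control median. Its log2 fold change was 0.23 ± 0.13 (95% interval −0.038 to 0.50, edgeR adjusted p = 0.305), and 0.15 ± 0.081 without control 19 (adjusted p = 0.324). Neither passed the test, and DESeq2 and limma-voom did not call Ppara either.

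Ppard, a ubiquitous PPAR that also promotes fat oxidation in muscle, held 21.7, 32.5 and 42.1 CPM in controls and 27.5, 32.8 and 34.2 CPM with rapamycin. Rapamycin hearts lay within the control range and were packed more closely. The log2 fold change was −0.036 ± 0.089 (95% interval −0.22 to 0.15, edgeR adjusted p = 0.853), and its sign turned without control 1 or without control 13. Without control 19 it was −0.082 ± 0.072 (edgeR adjusted p = 0.587). With TMM scaling and all libraries Ppard was the only member with an estimate below 0 by edgeR.

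Pparg, the master regulator of adipocytes and scarce in cardiac muscle cells, held 15.02, 20.2 and 29.6 CPM in controls and 15.4, 21.4 and 35.5 CPM with rapamycin. The groups overlapped almost entirely, with the highest value in a rapamycin heart. Its log2 fold change of 0.11 ± 0.16 (95% interval −0.22 to 0.43, edgeR adjusted p = 0.735) turned to −0.016 when no scaling factor was used, and was 0.13 ± 0.16 without control 19 (adjusted p = 0.728). Adipocyte markers (11 genes) summed to 755 to 2005 CPM in controls and 779 to 2434 CPM with rapamycin, and 0 of 11 were called, with 0 of 11 under an unadjusted p of 0.05 by edgeR and 0 called by DESeq2 or limma-voom.

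Ratios within a heart cancel scaling between libraries. The log2 ratio of Ppara to Ppard was 1.43 ± 0.31 in controls and 1.72 ± 0.14 with rapamycin (SD), with 8 of 10 rapamycin hearts above the control median. This shift of 0.28 ± 0.11 (SE) had a raw p of 0.0130 and did not pass after adjustment over 7 ratios (2-sided permutation test, adjusted p = 0.0907). Without control 19 it was 0.22 (permutation test, adjusted p = 0.179). Ratios of Pparg to either of the others had adjusted p of 0.847 (permutation test).

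Rxra, a dimer partner of all PPARs and of several other nuclear receptors, was the second member with an unadjusted p under 0.05. Controls held 51.4, 60.0 and 71.4 CPM and rapamycin hearts 58.7, 66.9 and 80.5 CPM. The ranges overlapped, with 4 rapamycin hearts above every control and 4 controls below every rapamycin heart. For Rxra the log2 fold change was 0.17 ± 0.074 (95% interval 0.015 to 0.32, edgeR p = 0.0332, adjusted p = 0.189). It was 0.17 ± 0.075 without control 19, a heart whose Rxra (59.8 CPM) was 99.5% of the median of the other controls. Unadjusted p stayed under 0.05 in 14 of 20 fits that each left out 1 heart. Without the 4 libraries with lung transcripts (control 19, control 1, control 20 and rapamycin 15) the log2 fold change was 0.25 (edgeR adjusted p = 0.0870). With library totals alone it was 0.044 (edgeR adjusted p = 0.701). Other retinoid X receptor genes were expressed as well, and neither was called. Rxrg held 53.3 ± 10.2 CPM in controls and 60.9 ± 8.02 CPM with rapamycin, and Rxrb 38.5 ± 4.90 and 41.0 ± 4.16 CPM (SD).

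The estrogen-related receptors had estimates of similar size, and none passed the test. Esrra, which encodes ERRα, an inducer of oxidative phosphorylation genes, held 77.8, 143 and 171 CPM in controls and 139, 162 and 170 CPM with rapamycin. Most rapamycin hearts (8 of 10) exceeded the control median, and none exceeded the highest control. The log2 fold change was 0.15 ± 0.098 (95% interval −0.057 to 0.35, edgeR adjusted p = 0.396), and 0.082 ± 0.061 without control 19.

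Esrrb, best known for its role in pluripotent and inner ear cells, was the least abundant of the family per kilobase of exon. It held 9.22, 31.0 and 40.3 CPM in controls and 23.4, 32.5 and 42.1 CPM with rapamycin. The groups overlapped throughout, and control 19 at 9.22 CPM was far below the next control at 24.6 CPM. Its log2 fold change was 0.15 ± 0.17 (95% interval −0.20 to 0.50, edgeR adjusted p = 0.641), against 0.051 ± 0.11 without control 19.

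Esrrg, which encodes ERRγ and serves the switch to oxidative metabolism in the heart after birth, held 20.99, 45.04 and 55.1 CPM in controls. With rapamycin it held 40.3, 49.1 and 55.1 CPM, with the same maximum in both groups and 7 of 10 rapamycin hearts above the control median. Its log2 fold change was 0.15 ± 0.11 (95% interval −0.088 to 0.38, edgeR adjusted p = 0.465), and 0.074 ± 0.069 without control 19. Ratios among the 3 ERRs differed between diets by −0.044 to 0.039 on the log2 scale, with SE of 0.062 to 0.11, and the signs of all 3 differences turned without control 19.

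Nrf1 had the smallest spread of the 10 genes in control hearts, though with rapamycin Esrra (7.30%), Ppard (7.55%) and Ppargc1a (7.94%) had smaller coefficients of variation. Controls held 24.2, 27.3 and 31.2 CPM and rapamycin hearts 24.9, 27.6 and 33.6 CPM, with control 19 in the middle at 27.4 CPM. For Nrf1 it was 8.95% in controls and 8.82% with rapamycin, beside the 6.09% that counting alone gives at its median of 270 reads. The log2 fold change was 0.033 ± 0.059 (95% interval −0.091 to 0.16, edgeR adjusted p = 0.791), which bounds a difference at this depth more tightly than for any other member. It was 0.038 ± 0.061 without control 19 (edgeR adjusted p = 0.799), and turned to −0.091 when no scaling factor was used.

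Levels between genes were compared per kilobase of exon (GENCODE M21 lengths). In control hearts Esrra stood highest at 63.18 ± 12.003 CPM per kb (SD, n = 10), followed by Ppara at 25.5 ± 6.02 and Ppargc1a at 16.02 ± 4.01. Rxra came next at 11.9 ± 1.36 CPM per kb, then Ppard (9.97 ± 1.83), Pparg (9.03 ± 2.03), Ppargc1b (8.92 ± 2.09) and Esrrg (7.61 ± 1.58). Esrrb (5.21 ± 1.55) and Nrf1 (5.10 ± 0.46) were lowest. With all 10 controls the gap between Esrra and Ppara exceeded the sum of their SDs, and that of every other adjacent pair in this order did not. Without control 19 the gaps from Ppara (27.1 ± 3.51) to Ppargc1a (16.9 ± 2.93), from Ppargc1a to Rxra (11.9 ± 1.45) and from Esrrg (8.04 ± 0.82) to Esrrb (5.605 ± 0.97) exceeded it as well, and Ppargc1b (9.43 ± 1.45) stood above Pparg (8.94 ± 2.12). With rapamycin the order differed in 1 place, with Ppargc1b at 11.6 ± 1.42 CPM per kb above Ppard (9.74 ± 0.74) and Pparg (9.72 ± 2.96). There too, Ppara (29.98 ± 3.96) and Ppargc1a (18.3 ± 1.46), Ppargc1a and Rxra (13.4 ± 1.56), and Esrrg (8.43 ± 0.92) and Esrrb (5.80 ± 1.10) were apart by more than the sum of their SDs, as were Esrra (69.97 ± 5.11) and Ppara. Whether counting used strand is not known here, and 73 bases of Esrra exons lie opposite exons of Trmt112, so a few Esrra reads could be counted for either gene. Exons of the other 9 genes shared no base with another gene.

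Control 19 held 29.4% (Esrrb) to 66.2% (Ppard) of the median of the other controls for 7 members, Ppara (42.2%), Esrrg (46.3%), Ppargc1a (46.6%), Ppargc1b (47.3%) and Esrra (52.3%) among them. For Rxra (99.5%), Nrf1 (101%) and Pparg (117%) it did not stand low. Each of the 7 estimates was lower without this library.

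Across hearts of the same diet, several of the regulators rose and fell together. For this, log2 CPM were centred on the mean of each diet. The 45 pairs were compared over 19 libraries, leaving out control 19, whose lung and cardiomyocyte transcripts stood apart as given above. Both Pearson's r and Spearman's rho were called for 7 pairs (permutation test with 100000 resamples, adjusted over 45 pairs), all with positive coefficients. Esrra and Esrrb were the closest pair (r = 0.833, rho = 0.856, permutation test adjusted p = 0.00045 and 0.0009, where a raw p of 1e-05 is the smallest that can be given). With the 2 hearts of most extreme Esrra left out, r was 0.802. Rxra followed both of them, with r = 0.839 and rho = 0.819 for Esrra, and r = 0.777 and rho = 0.725 for Esrrb (without its 2 most extreme hearts, r = 0.802 and 0.772).

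Ppara moved with Esrrb (r = 0.759, rho = 0.716, and r = 0.638 without its 2 most extreme hearts) and less closely with Esrra (r = 0.620, rho = 0.595, and r = 0.439 without them, so that this relation rests in part on those hearts). Esrrb and Esrrg had r = 0.651 and rho = 0.628, and r = 0.564 without the 2 hearts of most extreme Esrrb. Ppard and Esrra had r = 0.680 and rho = 0.637 (r = 0.584 without 2 hearts). No pair with Ppargc1a, Ppargc1b, Pparg or Nrf1 was called by both coefficients without control 19. Over all 45 pairs rho had a median of 0.128 and ran from −0.549 (Esrra and Nrf1) to 0.856. With control 19 included 8 pairs were called by both, Ppara and Ppargc1a being one (r = 0.826, rho = 0.699, and r = 0.479 without 2 hearts, control 19 among those farthest out), whereas Rxra and Esrra were called by rho alone (r = 0.456, rho = 0.737).

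**Figure D3:**
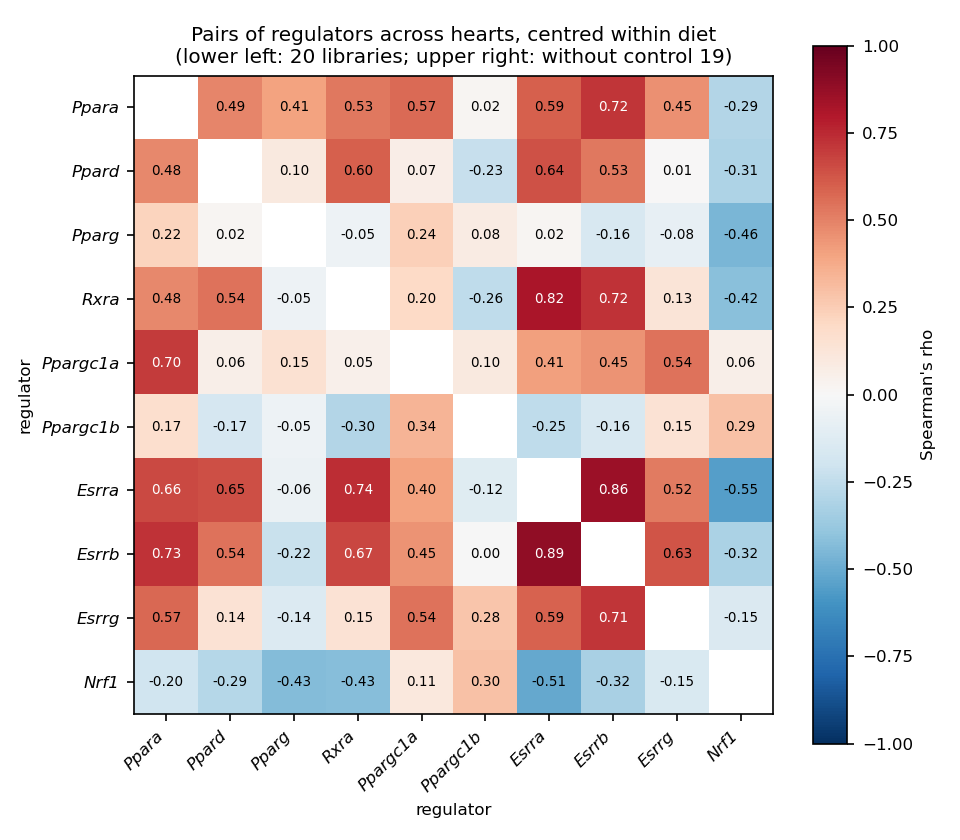
Spearman's rho between every pair of the 10 regulators across hearts, computed on log2 CPM centred within each diet, for all 20 libraries (lower left) and without control 19 (upper right). Without control 19 the highest values join Esrra to Esrrb (0.856) and to Rxra (0.819), and Nrf1 has negative values with 7 of the other regulators.

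Each member was then set against the mean log2 CPM of marker genes and of known target genes, again centred within diet and without control 19, as 80 relations chosen after the data were seen. Both coefficients were called for 11 of the 80 (permutation test). Pparg followed the adipocyte markers (r = 0.850, rho = 0.865, permutation test adjusted p = 0.0016 and 0.0008, and r = 0.832 without the 2 hearts of most extreme Pparg). All 3 ERRs followed the cardiomyocyte markers, with r = 0.791 for Esrrg, 0.787 for Esrrb and 0.620 for Esrra (rho = 0.796, 0.772 and 0.637, and r = 0.722, 0.714 and 0.490 without 2 hearts). They also followed the mean of 27 ERR target genes, with r = 0.737 for Esrra, 0.790 for Esrrb and 0.770 for Esrrg (rho = 0.807, 0.784 and 0.786, and r = 0.655, 0.699 and 0.706 without 2 hearts). Ppargc1b ran opposite to endothelial markers (r = −0.599, rho = −0.705, and r = −0.607 without 2 hearts), and Ppara opposite to fibroblast markers (r = −0.831, rho = −0.823, and r = −0.729). Esrrg ran opposite to macrophage markers (r = −0.631, rho = −0.618, and r = −0.602). It also followed the mean of 22 targets of NRF1 and GABP and genes of mitochondrial biogenesis (r = 0.704, rho = 0.625, and r = 0.555 without 2 hearts). The mean of 25 PPAR target genes was called with none of the 10 regulators: rho ran from −0.165 (Nrf1) to 0.405 (Pparg), with 0.237 for Ppara. The part of cell composition in these relations was not tested.

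**Figure D4:**
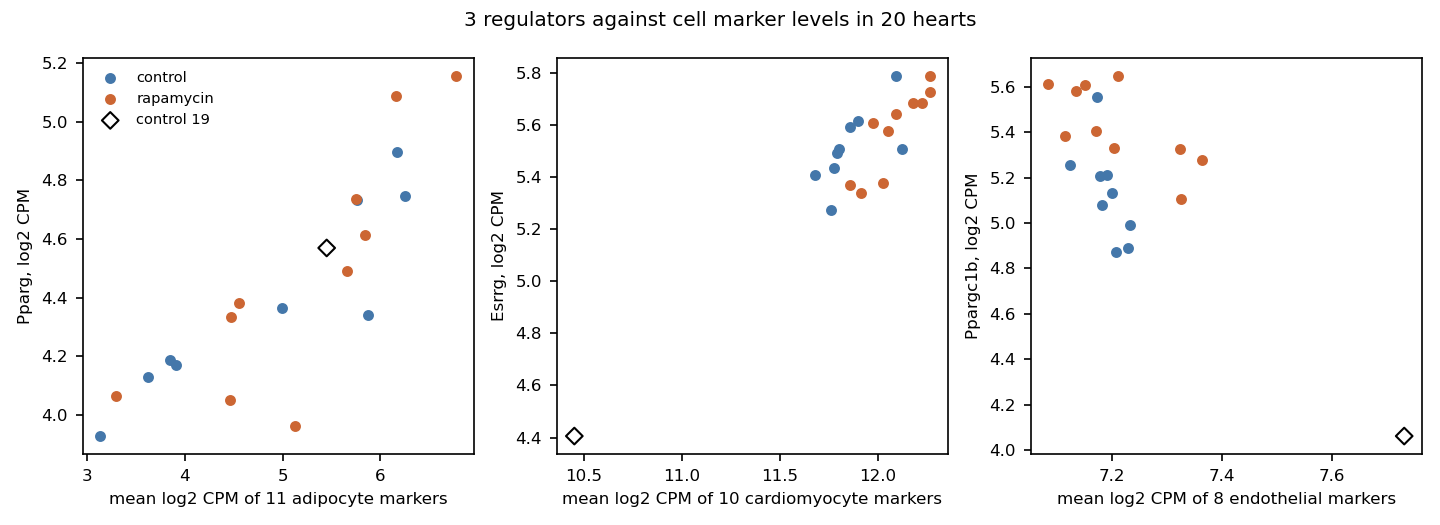
Log2 CPM of a regulator against the mean log2 CPM of a marker list, 1 panel per pair, where each point is 1 heart coloured by diet and control 19 is a diamond. Pparg rises with the adipocyte markers and Esrrg with the cardiomyocyte markers, while Ppargc1b falls as the endothelial markers rise, and control 19 lies far from all other hearts in the cardiomyocyte and endothelial panels.

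The genes most like each member across the 20 libraries were taken as the 3 with the highest rho among 11449 other genes averaging 5 CPM or more. Pparg was most like Ucp1, the heat-producing uncoupling protein of brown fat (rho = 0.950), Pck1, a gluconeogenic and glyceroneogenic enzyme (0.926), and Ppp2r5a (0.926). Esrra was most like Dlat, a subunit of pyruvate dehydrogenase (0.958), the mitochondrial chaperone Dnaja3 (0.955) and Atp5b, a catalytic subunit of ATP synthase (0.955). Esrrb was most like 1700020C11Rik (0.976), Asb8 (0.974) and the mitochondrial phosphate carrier Slc25a3 (0.971). Esrrg was most like BC004004 (0.916), the cardiac kinase Tnni3k (0.916) and the muscle enolase Eno3 (0.890).

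For Ppara the likest genes were Anks1 (0.892), Cnst (0.838) and Cobll1 (0.835). For Ppard they were Dnlz (0.878), Xpnpep1 (0.860) and the potassium channel Kcna5 (0.845), and for Rxra the sterol sensor Scap (0.901), the Wnt coreceptor Lrp5 (0.895) and Tns1 (0.893). Ppargc1b was most like the exocyst subunit Exoc3 (0.835), Grip2 (0.833) and Sfxn2 (0.798). The weakest likenesses were those of Ppargc1a, led by 8430406I07Rik (0.764), Epha7 (0.740) and Cnst (0.734), and of Nrf1, led by Pnn (0.797), Unk (0.788) and Uba2 (0.761). Each of these values was picked among the highest of 11449 and was not tested. All of them include control 19. Without it rho was 0.940 for Pparg with Ucp1, 0.949 for Esrra with Dlat, 0.958 for Esrrb with 1700020C11Rik and 0.628 for Ppargc1a with 8430406I07Rik.

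Other genes of the circuit were read as lists, in the order from control of the regulators to their targets. Among 25 upstream kinases and transcription factors (AMP-activated kinase, calcineurin, CREB, MEF2 and FOXO genes and others), 0 were called by edgeR, 6 had an unadjusted p under 0.05, all upward, while DESeq2 called 2 and limma-voom 0. These shares stand beside 21.7% of all genes with an unadjusted p under 0.05 by edgeR (8.21% upward) and 969 of 13940 genes called by DESeq2, against which the counts of this list and of those that follow are to be read. The smallest p belonged to the AMP-activated kinase subunit Prkag1 (log2 fold change 0.24 ± 0.074, edgeR adjusted p = 0.0690), the calcineurin subunit Ppp3cb (0.15 ± 0.046, 0.0732) and the lysosomal regulator Tcfeb (0.24 ± 0.084, 0.101). Among 19 dimer partners, coactivators and corepressors, 0 were called by edgeR, 2 had an unadjusted p under 0.05, both upward, while DESeq2 called 1 and limma-voom 0. The share with an unadjusted p under 0.05 is below the 21.7% of all genes in either direction and above the 8.21% of all genes upward. The list was led by the acetyltransferase Kat2b, from 117 ± 8.58 to 132 ± 8.57 CPM (0.18 ± 0.051, edgeR adjusted p = 0.0562), followed by the corepressor Nrip1 (0.22 ± 0.097, 0.194) and Hdac3 (0.093 ± 0.047, 0.255). The medians of these lists were 0.081 (upstream) and 0.082 (partners), and −0.042 for both with library totals alone, where all genes had −0.13. Without control 19 they were 0.080 and 0.065, and edgeR called 0 genes of either list, with 7 and 1 at an unadjusted p under 0.05.

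Of 11 receptors that compete with PPARs for RXR, 1 rose and 1 fell by edgeR, where 0.689% of all genes rose and 2.68% fell. Besides the called genes, Rarb (0.19 ± 0.070), Thra (0.24 ± 0.086) and Nr1h2 (0.11 ± 0.046) had an unadjusted p under 0.05 by edgeR. All of these were upward, as were 8.21% of all genes at that threshold. Nr4a1, an immediate early orphan receptor, rose from 20.4 ± 11.7 to 47.8 ± 26.3 CPM (log2 fold change 1.22 ± 0.32, edgeR adjusted p = 0.0407). Vdr, the vitamin D receptor, fell from 3.42 ± 1.81 to 1.66 ± 0.33 CPM (−1.04 ± 0.27, edgeR adjusted p = 0.0380), and missed the threshold without control 19 (−0.89, adjusted p = 0.0543). Of 26 alternative fits, 12 did not call Nr4a1 and 17 did not call Vdr, limma-voom and the fit without the 4 libraries with lung transcripts among both.

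Of 25 listed targets of the PPARs, 4 rose and 1 fell (edgeR adjusted p under 0.05, where 0.689% of all genes rose and 2.68% fell), and the median log2 fold change was 0.30. DESeq2 called 9 upward and limma-voom 4. Without control 19, 6 rose and 1 fell, with a median of 0.25. Decr1, which lets unsaturated fats enter the oxidation cycle, rose by a log2 fold change of 0.43 ± 0.086 (edgeR adjusted p = 0.0144). Hadha, a subunit of the mitochondrial trifunctional protein, rose by 0.48 ± 0.12, Acadm, the medium-chain acyl-CoA dehydrogenase, by 0.43 ± 0.11, and the thioesterase Acot2 by 0.43 ± 0.11 (edgeR adjusted p = 0.0342, 0.0358 and 0.0385). Ucp2, an uncoupling protein abundant in immune cells, fell by 0.80 on the log2 scale (SE 0.19, edgeR adjusted p = 0.0282), and was not called without rapamycin 4, 6, 15 or 18. It held 292 CPM in control 19 and 72.1 to 159 CPM in the other controls, against 60.0 to 94.9 CPM with rapamycin. The number that rose lay between 1 and 7 when single hearts were left out, with 7 without rapamycin 5 and 1 without control 2, 7 or 11 or rapamycin 4, 6, 12, 15 or 18, and 2 without rapamycin 8 or 9. The authors' deposited table held 700 genes, against 34291 rows in the table of read counts. These 700 included 8 of the 25, with Decr1, Hadha, Acadm, Acot2 and Ucp2 among them, and none of the 10 regulators. With so few of all rows included, the absence of 10 genes says little about them.

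Among 27 ERR targets 0 were called by edgeR with all libraries, while 11 had an unadjusted p under 0.05, all upward (8.21% of all genes), while DESeq2 called 2, a share near that of all genes, and limma-voom called 0. The median was 0.24, and 0.17 without control 19, when 1 was called: the potassium channel Kcnj8 (0.24, edgeR adjusted p = 0.0277). With all libraries the leading genes were the carnitine palmitoyltransferase Cpt2 (0.38 ± 0.12, edgeR adjusted p = 0.0828), Kcnj8 (0.31 ± 0.10, 0.0864) and cytochrome c, Cycs (0.21 ± 0.079, 0.128). Among 22 targets of NRF1 and GABP and genes of mitochondrial biogenesis, 0 were called by edgeR, while DESeq2 called 3 and limma-voom 0. Of these 22, 5 had an unadjusted p under 0.05, all upward, beside 8.21% of all genes upward and 21.7% in either direction. The median was 0.031, 0.021 without control 19 (0 called by edgeR, 4 at an unadjusted p under 0.05), and −0.093 with library totals alone. Gabpa, a subunit of the GABP factor itself (0.18 ± 0.051, edgeR adjusted p = 0.0525), the copper chaperone Cox17 (0.27 ± 0.085, 0.0759) and Tfb2m, a mitochondrial transcription factor (0.20 ± 0.064, 0.0843), led the list.

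**Figure D5:**
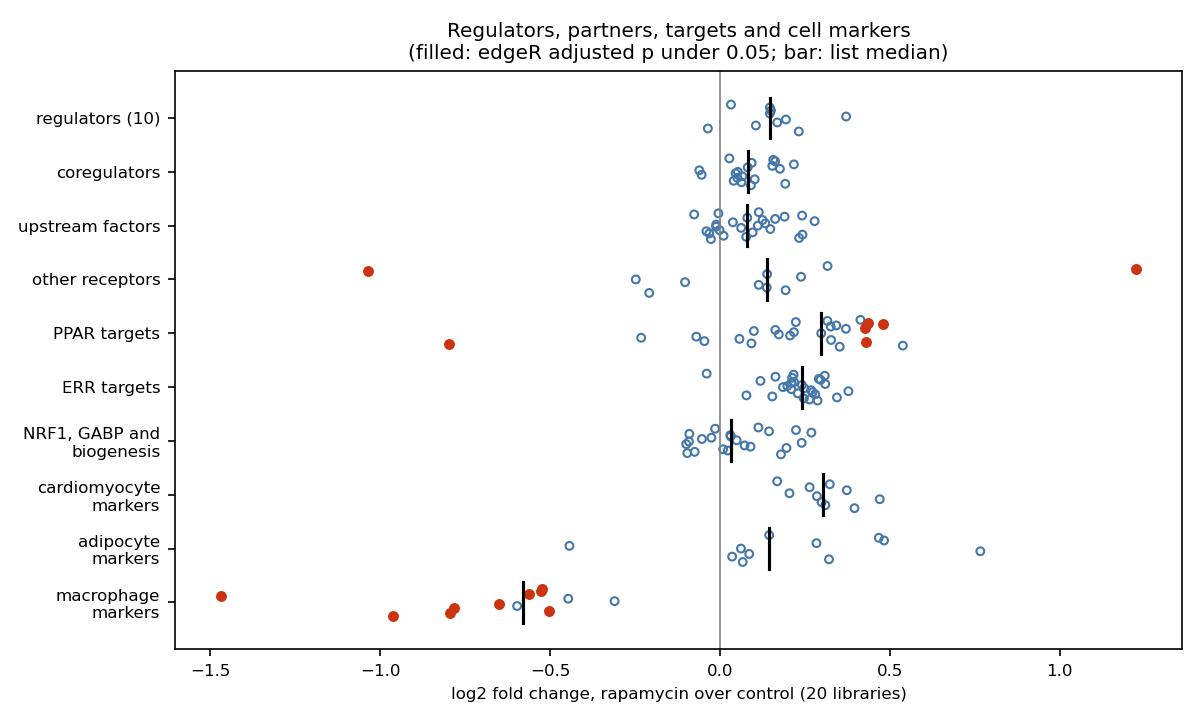
Log2 fold change, rapamycin over control, of every tested gene of the regulators, the lists around them and 3 marker lists, 1 row per list, where each point is 1 gene, filled where edgeR's adjusted p is under 0.05, and the vertical mark is the list's median. The medians lie at 0.15 for the 10 regulators, 0.30 for PPAR targets and 0.24 for ERR targets.

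Markers of cell types were read beside these lists, and with all libraries edgeR called only macrophage markers and genes of the lung list. Macrophage markers fell for 9 of 12 by edgeR and 5 of 12 by limma-voom (median −0.58, and 10 of 12 by edgeR with a median of −0.61 without control 19), with summed levels of 722 to 1456 CPM in controls other than control 19 (3534 CPM) and 520 to 1000 CPM with rapamycin. Of 10 cardiomyocyte markers 0 were called by edgeR, 6 had an unadjusted p under 0.05, all upward, DESeq2 called 1, and the median was 0.30 (0.22 without control 19, when Myl2 was called). Endothelial markers (0 of 8 called, median −0.033, 0 with an unadjusted p under 0.05) summed to 1190 to 1401 CPM in controls other than control 19, which held 2057 CPM, and to 1185 to 1420 CPM with rapamycin. Of 8 fibroblast markers 0 were called and 0 had an unadjusted p under 0.05 by edgeR, and neither DESeq2 nor limma-voom called an endothelial or fibroblast marker. Of the 8 genes of the lung list 2 had counts high enough to be tested, and both fell: Marco, a scavenger receptor of alveolar macrophages (log2 fold change −3.60, edgeR adjusted p = 0.0111, and −3.41 and 0.00999 without control 19), and Chi3l3, a macrophage lectin whose reads may be shared with close paralogues (−6.12, 0.0255, and −4.35 and 0.0403). Without control 19, Chi3l3 still held 33.6 ± 93.4 CPM in controls, an SD far above the mean, and 1.67 ± 0.79 CPM with rapamycin (SD). Marco then held 12.1 ± 11.5 CPM in controls and 1.11 ± 1.85 CPM with rapamycin (SD). Sftpd and Ear1 were at 0 in 10 or more libraries. The part of these cells in the differences between diets was not tested.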

How the data were processed

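Polyadenylated RNA of 20 hearts was read in pairs of 50 bp on a HiSeq 2000, per the labels' protocols and the series' design text, which names the MGSCv37 genome, unique mapping and at most 2 mismatches. The sources used here give no aligner, counter or strand setting. Per the submitters' processing notes edgeR was used, at a step they do not name. The authors deposited raw read counts per gene symbol (34291 rows) and a table of 700 genes in CPM, of which only the gene names were used. Groups came from sample titles. The design text gives 10 mice per group, and in 90 comparisons within groups no pair of libraries was as close as repeat counts of 1 sample would be (chi-square at least 5.56 per degree of freedom).

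Counts were tested with edgeR 4.0.16 in R 4.3.3: default expression filter (13940 genes kept), TMM, quasi-likelihood F-test between the diets over 20 libraries with no covariate, Benjamini-Hochberg adjustment, threshold 0.05. Log2 CPM add a prior count of 2, and SE is the fold change divided by the square root of F. Relations and ratios used permutation tests with 100000 resamples, restricted within diet for relations. Alternatives were DESeq2 1.42.0, limma-voom (limma 3.58.1), other scaling, no filter and left-out libraries. Scripts were tested on simulated data.

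The members and gene lists were chosen with earlier results of these data known. From each list every called gene was named, or otherwise the 3 with the smallest p. Ranges of levels give lowest, median and highest heart. Of 23 biogenesis genes 22 matched a row, and Tfeb is listed under its older symbol Tcfeb.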

Additional observations from a re-analysis of the deposited data

Results flagged for a closer look

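Among control hearts the level of control 19 lay far below all others for 5 of the 10 regulators. On the log2 CPM scale, where the gap was computed, it was larger than Dixon's 95% limit for 10 samples. Control 19 held 39.5 CPM of Ppara, 16.5 CPM of Ppargc1b, 77.8 CPM of Esrra, 9.22 CPM of Esrrb and 20.99 CPM of Esrrg. The next lowest controls held 81.4, 29.0, 129, 24.6 and 38.5 CPM. Each of 10 genes was examined in 2 groups, 20 in all, and chance alone gives such a gap in about 1 in 20. No rapamycin group was marked in this way, and neither were Rxra, Nrf1, Pparg, Ppard and Ppargc1a in either group. All 5 values come from the same library, so they are not independent of each other. That library also held the lung transcripts and the low cardiomyocyte markers given above.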

How the results depend on the processing

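Ppara, Rxra, Ppargc1a, Ppargc1b, Esrra, Esrrb and Esrrg stayed above 0 in all 26 alternative fits. Members that rose numbered 1 by DESeq2 and 0 to 1 with single hearts left out. Signs turned for Ppard without control 1 (0.011) and control 13 (0.0084; range −0.082 to 0.011 with single hearts left out), for Pparg (−0.016) and Nrf1 (−0.091) with no scaling factor, and for the ratios Esrra to Esrrb (0.037), Esrra to Esrrg (0.014) and Esrrb to Esrrg (−0.023) without control 19. The cause was not tested. PPAR targets that rose numbered 9 by DESeq2 and 1 to 7 with single hearts left out, and those that fell 0 without the 4 libraries with lung transcripts (control 19, control 1, control 20 and rapamycin 15) and 0 to 1 with single hearts left out. ERR targets that rose numbered 2 by DESeq2 and 0 to 1 with single hearts left out (1 without control 19 or rapamycin 5). Over all genes, 469 calls became 969 by DESeq2, 1332 with no scaling factor (96.4% falls against 79.5%), 280 without the 4 lung libraries, 273 by limma-voom and 165 to 791 with single hearts left out. Falls were 68.9% without control 19 and 66.8% by DESeq2. Among the members counting error was largest for Pparg. No paired analysis was possible because each library number occurs in 1 group.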
